A study of Homo sapiens with 12 samples.

Results

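Kinesins were taken as every gene whose symbol is KIF followed by a number, with or without a further letter and digit, which gave 39 of the 23064 gene symbols in the deposited count tables. They were read by RNAseq in CAL-29 and 5637 cells, both established human lines of urothelial bladder cancer, 3 days after transfection with a control siRNA (siCtrl) or with siKMT9α#1, an siRNA against N6AMT1, the gene of the methyltransferase subunit KMT9α. Each of the 4 groups held 3 libraries, and the labels give both lines as wild type, so that no group carried an engineered allele. The labels call the agent siRNA against KMT9α only. That it was siKMT9α#1 is taken from the study's description of its RNAseq experiment. The lines also differed in culture medium, transfection reagent and siRNA dose, which cannot be told apart from the cell line. Only 1 siRNA was used, so that the knockdown cannot be told apart from other effects of that siRNA. The samples are not said to come from separate cultures, and the p-values therefore measure only the spread between these libraries.

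Kinesins are motor proteins that use ATP to walk along microtubules or to take microtubule ends apart. Mitotic kinesins build the spindle, move chromosomes and organise the midzone for cytokinesis, and in dividing cells their mRNAs accumulate towards G2 and M phase together with cyclin B and Aurora kinases. Transport kinesins carry vesicles, organelles, RNA and ciliary cargo through the cytoplasm in interphase, mostly towards the cell periphery, and work beside cytoplasmic dynein, which moves the other way. A further set acts on cilia, centrioles and microtubule dynamics or has less clear roles. By these textbook roles 13 members were mitotic, 13 were transport and 13 were placed among the others. The placing of KIF2A among the others is a choice, and it was counted as mitotic in a further setting. KIF2A was called in neither line, at log2 fold changes of 0.29 ± 0.05 in CAL-29 and -0.09 ± 0.04 in 5637 cells. Statements on all mitotic members therefore hold for the list without it.

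The libraries held 24479348.5 to 35151256.5 counts over the rows used. The epithelial keratins KRT8, KRT18, KRT19 and KRT5 were high in all 12, with lowest values of 677, 645, 1042 and 960.5 CPM (counts scaled to library size). KRT7 lay at 70.9 to 97.8 CPM in CAL-29 and at 1718 CPM or more in 5637 cells, and EPCAM at 133 CPM or more. PTPRC, PECAM1 and CD3E, markers of blood and endothelial cells, did not pass 0.326, 0.112 and 0.0391 CPM. ACTA2, a further marker of other cells, was low but higher than these, at 2.60 to 4.30 CPM in CAL-29 and 1.41 to 4.94 CPM in 5637 libraries. N6AMT1 mRNA fell from 10.4 ± 0.891 to 2.58 ± 0.515 CPM (mean ± s.d., n = 3) in CAL-29 and from 13.3 ± 0.0878 to 2.84 ± 0.803 CPM in 5637 cells. Replicates differed by more than counting noise in every group, and siCtrl replicate 1 of CAL-29 stood apart from its fellows, where chi-square over its degrees of freedom was 8.25 and 12.4 against 3.33 between the other two. Without that library the counts of called kinesins in CAL-29 cells were the same as with it, at 11 mitotic members up, 1 transport member up and 2 transport members down.

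Of the 39 kinesins, 32 passed the count filter in CAL-29 and 30 in 5637 cells. These were 11 mitotic members in each line, 11 transport members in each line and 10 and 8 of the others. KIF2B had 0 counts in all 12 libraries, which allows no more than 3 counts per library, and KIF4B had 13 counts in the CAL-29 table and 6 in the 5637 table. KIF4B is an intronless copy of KIF4A, and reads of the pair could be split between them. KIF5A, KIF6, KIF19 and KIF25 were tested in neither line, KIF17 only in 5637 cells, and KIF1A, KIF12 and KIF26A only in CAL-29 cells. A kinesin is called up or down at p below 1e-06, the threshold of the study, in edgeR's quasi-likelihood test over all genes, and Benjamini-Hochberg adjusted p-values over all genes are given beside it. CPM were scaled within each line, and levels are compared between lines only on the scale of a joint fit.

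The promoters of most, but not all, tested mitotic kinesins carried 2 sequence elements that most transport kinesins lacked. The cell cycle genes homology region (CHR) is the element through which the MuvB complexes silence genes outside G2 and M phase and activate them within it, and it often stands downstream of CCAAT boxes, which bind NF-Y. In the RefSeq windows from 250 bases before to 50 bases after the transcription start (GRCh38.p14, first window listed for each symbol), 33 of the 39 members had an entry. CHR letters (TTTGAA or TTCGAA, either strand) stood in 9 of the 11 tested mitotic kinesins, in 1 of the 11 transport kinesins with a window and in 1 of the 7 others that were tested and listed, against 11.3% of the 11632 tested genes with a window and 16.6% of all 27305 windows. CCAAT on either strand stood in 9, 3 and 2 of them, against 36.0% of tested genes and 35.7% of all windows, and both elements together in 8, 1 and 1, against 4.74% and 6.58%. A match of letters is a description and does not show that a factor bound there. The 100 bases before the start are printed for the 5 mitotic kinesins that held both elements before the start site, with the CHR and CCAAT letters of either strand in capitals.
KIF11 (chr10:92593030-92593129, plus strand): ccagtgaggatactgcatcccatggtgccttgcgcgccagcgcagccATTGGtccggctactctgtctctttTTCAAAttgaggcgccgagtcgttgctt
KIF4A (chrX:70290004-70290103, plus strand): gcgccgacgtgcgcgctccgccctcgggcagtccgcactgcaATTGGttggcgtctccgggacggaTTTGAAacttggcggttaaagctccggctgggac
KIF18A (chr11:28108157-28108256, minus strand): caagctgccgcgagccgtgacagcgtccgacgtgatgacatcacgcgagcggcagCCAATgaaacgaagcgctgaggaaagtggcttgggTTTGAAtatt
KIF22 (chr16:29790651-29790750, plus strand): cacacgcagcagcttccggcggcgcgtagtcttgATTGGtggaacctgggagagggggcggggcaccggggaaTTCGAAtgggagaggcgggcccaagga
KIF23 (chr15:69414249-69414348, plus strand): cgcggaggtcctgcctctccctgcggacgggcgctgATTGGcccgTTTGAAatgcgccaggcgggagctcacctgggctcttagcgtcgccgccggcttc

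In all 5 of these promoters the CCAAT letters came first and the CHR letters followed nearer to the start, at -28 (KIF11), -34 (KIF4A), -10 (KIF18A), -27 (KIF22) and -55 (KIF23), where -1 is the last base before the start. The CHR letters of KIF14 and KIF18B lay at 2 and 3 bases past the start, and those of KIF15 at -35 without a CCAAT. KIF20B held CHR letters at 25 and 31 bases past the start, with CCAAT letters at -131 and -98. KIF20A and KIF2C held no CHR letters in their windows, and KIF2C held no CCAAT either. Yet KIF20A had the largest rise of the tested kinesins in CAL-29 (log2 2.0) and KIF2C in 5637 cells (0.78). Whether the elements played a part in the response was not tested. KIF20A is printed to show its pair of CCAAT boxes. KIF5B, the heavy chain of conventional kinesin and the one transport member with CHR letters, is printed from -160 to -61. Its CHR letters lie farther from the start, at -140. KIF5B also held CCAAT letters, at -59 and just past the printed stretch. It therefore held both elements, with the CHR letters first.
KIF20A (chr5:138179012-138179111, plus strand): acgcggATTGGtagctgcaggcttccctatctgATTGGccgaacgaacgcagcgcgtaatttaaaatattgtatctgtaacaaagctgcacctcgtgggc
KIF5B (chr10:32056486-32056585, minus strand): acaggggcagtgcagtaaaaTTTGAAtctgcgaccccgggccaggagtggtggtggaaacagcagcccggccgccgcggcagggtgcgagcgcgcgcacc

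In CAL-29 cells all 11 tested mitotic kinesins rose upon KMT9α knockdown. Their log2 fold changes ran from 0.88 to 2.0 with a median of 1.33, beside a median of -0.02 over the 14673 genes tested, of which 15.0% were called up, 15.0% down and 30.0% in either direction. Every one of the 11 had its 3 siKMT9α#1 libraries above its 3 siCtrl libraries, as had 35.6% of all genes. Added up, the 11 mRNAs took 311 ± 7.39 CPM in siCtrl and 775 ± 12.3 CPM in siKMT9α#1 libraries (mean ± s.d., n = 3), a ratio of 2.49.

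In 5637 cells the rise was smaller and reached 7 of the 11 mitotic kinesins. The members called up were KIF2C, KIF4A, KIF14, KIF18A, KIF18B, KIF20A and KIF23, none was called down, and log2 fold changes ran from 0.09 to 0.78 with 0.55 as the median, beside -0.01 over the 14335 genes tested, of which 18.0% were called up, 17.6% down and 35.6% in either direction. For 10 of the 11 all siKMT9α#1 libraries lay above all siCtrl libraries, as for 35.8% of genes. KIF11, KIF15, KIF20B and KIF22 did not pass the threshold of 1e-06. At an adjusted p below 0.05, which 70.7% of all genes reached, 10 of the 11 passed, all upwards, and KIF22 did not (adjusted p = 0.0749). The sum over the 11 went from 444 ± 4.97 to 623 ± 6.91 CPM, a ratio of 1.40.

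**Figure D1:**
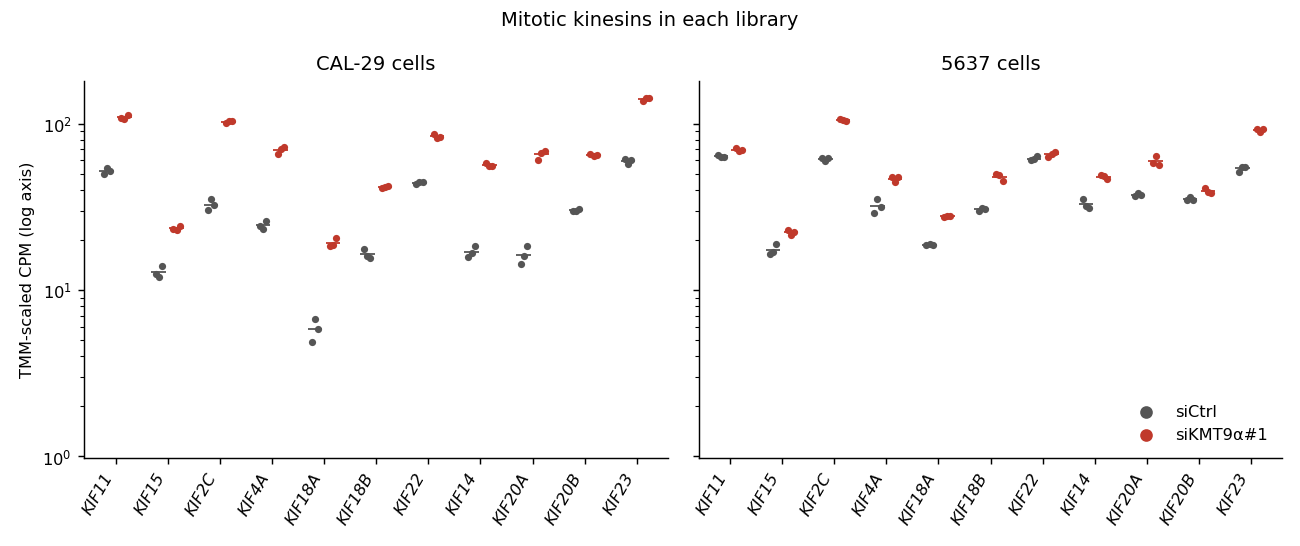
Level of each tested mitotic kinesin in every library (points; TMM-scaled CPM on a log axis) with the group mean (line), for siCtrl (grey) and siKMT9α#1 (red) in CAL-29 (left) and 5637 cells (right). The red points lie above the grey points for all 11 genes in CAL-29 cells and by less in 5637 cells, where those of KIF22 overlap.

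Among the motors that hold the spindle apart, KIF11 (Eg5) slides the poles of the spindle away from each other. It stood at 49.7, 54.3 and 51.5 CPM in the 3 siCtrl and at 109, 107 and 112 CPM in the 3 siKMT9α#1 libraries of CAL-29 cells, which is 1.07 ± 0.05 as log2 fold change (SE, adjusted p = 1.1e-13). In 5637 cells controls of 64.5, 62.9 and 63.3 CPM stood against 71.3, 68.7 and 69.4 CPM after knockdown, a difference of 0.13 ± 0.04 that did not pass the call (adjusted p = 0.0039). The groups did not overlap in either line, but the gap was wide in CAL-29 and only a few CPM in 5637. KIF15, which can take over from KIF11, had 12.4, 12 and 13.9 CPM in siCtrl against 23.4, 22.9 and 24.1 CPM in siKMT9α#1 libraries of CAL-29 (0.88 ± 0.08, adjusted p = 6.2e-09). The 5637 libraries held 16.5, 16.8 and 19 against 22.9, 21.5 and 22.2 CPM (0.35 ± 0.07, adjusted p = 4.2e-05), separate groups whose difference missed 1e-06.

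The motors of chromosomes and kinetochore fibres include the depolymerase KIF2C (MCAK), which frees wrongly attached microtubules. Its CAL-29 libraries went from 30.1, 35.1 and 32.4 CPM to 101, 103 and 104 CPM, a 3.15-fold rise (log2 1.65 ± 0.06, adjusted p = 7.9e-16). In 5637 cells KIF2C had the largest rise among the tested kinesins, from 61.8, 59.4 and 61.9 to 107, 105 and 103 CPM (0.78 ± 0.04, adjusted p = 7.4e-17). In both lines the groups lay far apart. KIF18A, which calms chromosome oscillations at the metaphase plate, had the lowest control level per kilobase of the tested mitotic members in CAL-29 (1.66 CPM per kb), with libraries at 4.9, 6.72 and 5.82 CPM against 18.3, 18.5 and 20.6 CPM after knockdown (1.71 ± 0.11, adjusted p = 1.7e-11). The 5637 libraries varied little within a group, at 18.7, 18.8 and 18.7 against 27.3, 27.9 and 27.9 CPM (0.56 ± 0.06, adjusted p = 1.1e-09).

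KIF4A, a chromokinesin that also sets the length of the midzone, went from 24.3, 23.4 and 25.8 to 65.4, 70.3 and 72.1 CPM in CAL-29 (1.5 ± 0.06, adjusted p = 1.1e-14). In 5637 it went from 29.2, 35.2 and 31.4 to 47.9, 44.7 and 47.4 CPM (0.55 ± 0.06, adjusted p = 1.1e-09). KIF18B, which trims astral microtubules, rose in both lines by 1.33 ± 0.07 and 0.65 ± 0.05. Its CAL-29 libraries held 17.5, 16.1 and 15.6 against 40.8, 41.3 and 41.9 CPM and its 5637 libraries 29.7, 31.2 and 30.7 against 49.6, 48.9 and 45.1 CPM. KIF22 (Kid), which pushes chromosome arms away from the poles, rose in CAL-29, from 43.1, 44.6 and 44.5 to 87, 81.7 and 83.1 CPM (0.93 ± 0.05, adjusted p = 1.5e-12). In 5637 cells KIF22 had 60.1, 60.8 and 63.4 CPM in siCtrl and 62.7, 65.8 and 67 CPM in siKMT9α#1 libraries, groups that overlapped (0.09 ± 0.04). In the annotation used, 7.83% of the KIF22 exon bases lie opposite exons on the other strand. For the other called mitotic members this share was at most 5.35%, reached by KIF20A. Whether strand was used in counting is not given in the sources used here.

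The midzone and cytokinesis motors held the largest rise of all tested kinesins in CAL-29 cells. KIF20A (MKLP2), which brings Aurora B to the midzone, stood at 14.3, 16.1 and 18.4 CPM in siCtrl and 60.7, 66.4 and 68.7 CPM in siKMT9α#1 libraries, a 4.0-fold rise (log2 2.0 ± 0.08, adjusted p = 4.5e-15). In 5637 cells it rose 1.59-fold, from 36.5, 38.5 and 37 to 58.1, 63.8 and 56.1 CPM (0.67 ± 0.05, adjusted p = 1.2e-12). The groups were separate in both lines. KIF23 (MKLP1), the motor of centralspindlin, had 61.2, 57.5 and 60.7 CPM in CAL-29 controls and 136, 142 and 142 CPM after knockdown (1.23 ± 0.05, adjusted p = 5.9e-15). Its 5637 libraries held 51.2, 54.8 and 55.2 against 93, 89.4 and 92.5 CPM (0.77 ± 0.04, adjusted p = 5.8e-16). Neither line had an overlap between its groups.

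KIF14, which recruits citron kinase to the midbody, rose by 1.73 ± 0.07 in CAL-29, from 15.9, 16.6 and 18.4 to 57.6, 55.9 and 55.7 CPM (adjusted p = 3.2e-15). In 5637 its libraries held 35, 31.8 and 31.3 against 48.9, 48.1 and 46.7 CPM (0.55 ± 0.05, adjusted p = 1.3e-10). KIF20B (MPP1), needed late in cytokinesis, went from 29.8, 29.9 and 30.7 to 65.3, 63.6 and 64.3 CPM in CAL-29 (1.10 ± 0.05, adjusted p = 2.6e-13). In 5637 KIF20B had 34.7, 36.4 and 34.9 against 40.9, 38.8 and 38.4 CPM, a difference of 0.16 ± 0.05 that missed the call (adjusted p = 0.0069).

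Whether the response differed between the lines was tested as the interaction of cell line and siRNA in a joint fit of the 12 libraries. The response was lower in 5637 than in CAL-29 cells for 10 of the 11 mitotic kinesins at p below 1e-06, beside 8.62% of the 15395 genes in that fit, and higher for none of them, beside 7.11% (15.7% in either direction). The difference of the log2 fold changes ran from -1.35 (KIF20A) to -0.47 (KIF23) with a median of -0.96, and KIF15, at -0.54 ± 0.10, missed the threshold (adjusted p = 7.9e-05, a level below 0.05 as for 50.4% of genes). The controls differed as well. At siCtrl, 9 of the 11 mitotic mRNAs were higher in 5637 than in CAL-29 cells, beside 30.7% of all genes (59.8% in either direction), with KIF18A highest at a log2 difference of 1.75 ± 0.09. KIF20B (0.30 ± 0.05) and KIF23 (-0.09 ± 0.05) were not called. Without siCtrl replicate 1 of CAL-29, 8 were called higher at siCtrl and 10 still had the lower response. The control level enters both comparisons, and the part it played in the smaller 5637 response was not tested. On the common scale of the joint fit, the summed mitotic mRNAs were at 303 ± 7.82 and 453 ± 4.18 CPM in the CAL-29 and 5637 controls and at 764 ± 13 and 636 ± 6.98 CPM after knockdown, so the order of the lines was the opposite after knockdown.

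**Figure D2:**
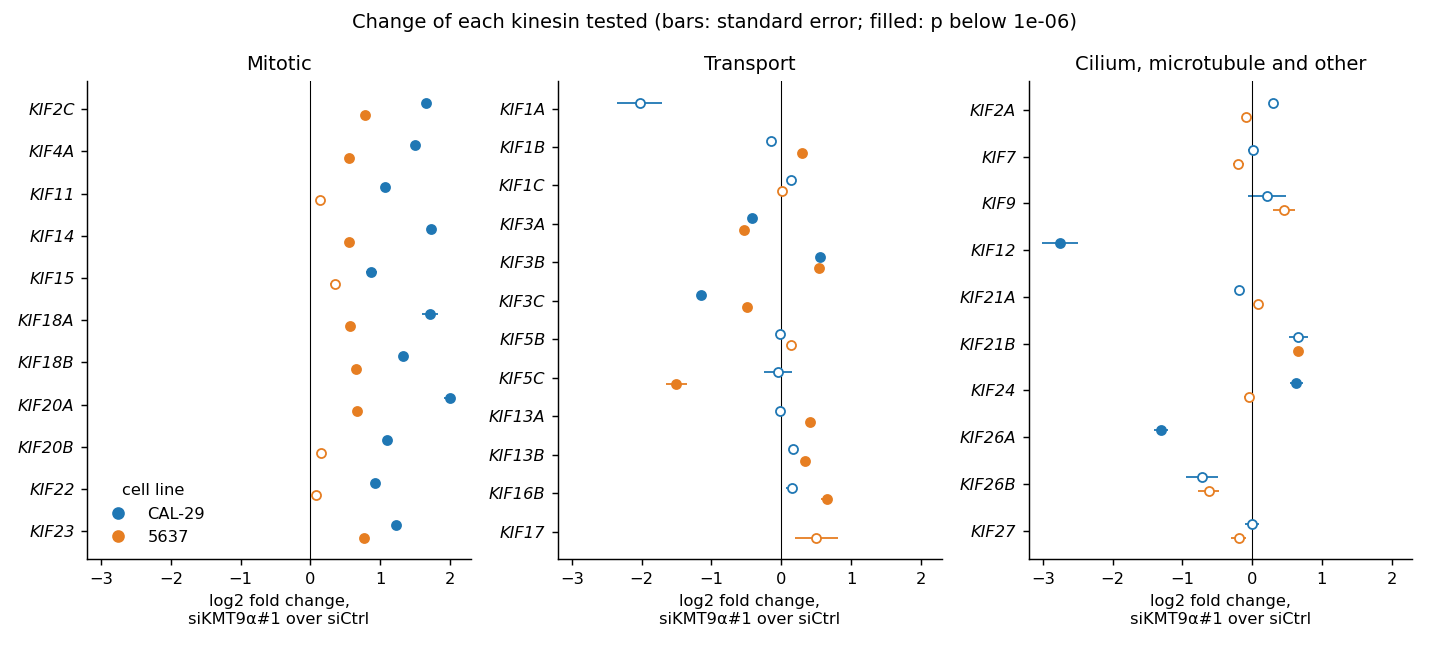
Log2 fold change (siKMT9α#1 over siCtrl) of every tested kinesin in CAL-29 (blue) and 5637 cells (orange), by role, with the standard error as bars; filled points have p below 1e-06. All mitotic points lie right of 0, from 0.88 to 2.0 in CAL-29 and from 0.09 to 0.78 in 5637 cells, whereas transport points lie on both sides.

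Transport kinesins did not move as a block. In CAL-29 cells 1 of the 11 tested rose (KIF3B), 2 fell (KIF3A and KIF3C) and 8 were not called, 27.3% called in all beside 30.0% of all genes, and their median was -0.02 on the log2 scale. At an adjusted p below 0.05, which 69.5% of genes reached, 3 were higher and 4 lower. In 5637 cells 5 rose (KIF1B, KIF3B, KIF13A, KIF13B and KIF16B), 3 fell (KIF3A, KIF3C and KIF5C) and 3 were not called, 72.7% called beside 35.6% of all genes, with a median of 0.30. When libraries were scaled by their totals alone, this ended the 5637 calls of KIF1B and KIF13B. Summed over the 11 tested in each line, transport mRNAs took 1030 ± 24.4 CPM in CAL-29 controls and 1094 ± 17 CPM after knockdown, and 754 ± 8.51 and 835 ± 27.3 CPM in 5637, ratios of 1.06 and 1.11 where the mitotic sums gave 2.49 and 1.40.

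The kinesin-2 motor, which hauls cargo along cilia and in the cytoplasm, pairs KIF3A with either KIF3B or KIF3C, and its subunit mRNAs moved in opposite directions. KIF3B rose in both lines. It stood at 179, 186 and 191 CPM in siCtrl and 272, 279 and 264 CPM in siKMT9α#1 libraries of CAL-29 (0.55 ± 0.05, adjusted p = 1.5e-09), and at 79.2, 84.8 and 77.7 against 125, 111 and 116 CPM in 5637 (0.55 ± 0.04, adjusted p = 3.8e-12). The responses of the lines differed by -0.02 ± 0.07 (SE) in the joint fit, well within the error. KIF3A fell in both, from 53.6, 52.3 and 52.3 to 40, 41.4 and 36.6 CPM in CAL-29 (-0.42 ± 0.06, adjusted p = 2.0e-06) and from 28.8, 26.7 and 26.1 to 19.2, 17.8 and 19.4 CPM in 5637 (-0.53 ± 0.06, adjusted p = 1.5e-08). The CAL-29 call of KIF3A was close to the threshold and was lost when any library but siCtrl replicate 1 was left out, at log2 fold changes of -0.46 to -0.37. KIF3C fell the most of the 3 in CAL-29, from 45.8, 48.9 and 46.6 to 20.9, 20.9 and 22 CPM (-1.15 ± 0.06, adjusted p = 9.7e-13), and by less in 5637, from 45, 42.1 and 44.6 to 32.9, 30.5 and 30.1 CPM (-0.50 ± 0.05, adjusted p = 1.3e-09), with a difference between the lines of 0.64 ± 0.08 (adjusted p = 1.1e-07).

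Within a library the balance of the kinesin-2 subunits therefore changed. KIF3A CPM came to 28.5 ± 1.35% of KIF3B CPM in the CAL-29 controls and to 14.5 ± 0.529% after knockdown, and to 33.8 ± 2.47% and 16.0 ± 0.689% in 5637 (mean ± s.d., n = 3). For KIF3C the shares were 25.4 ± 0.955% and 7.84 ± 0.433% in CAL-29 and 54.6 ± 4.31% and 26.5 ± 0.834% in 5637. The knockdown libraries lay below the controls without overlap for both shares in both lines. These are shares of read counts, not of molecules, since the genes differ in length. KIFAP3, which links the motor to cargo, was not called in either line (-0.10 ± 0.08 and -0.23 ± 0.06).

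Conventional kinesin, or kinesin-1, has the heavy chains KIF5A, KIF5B and KIF5C, and KIF5B is the form found in most tissues. KIF5B stood at 279, 274 and 299 CPM in siCtrl and 274, 282 and 282 CPM in siKMT9α#1 libraries of CAL-29, groups that overlapped (-0.02 ± 0.05, adjusted p = 0.70). In 5637 it had 160, 157 and 148 against 176, 169 and 166 CPM, a difference of 0.14 ± 0.04 that missed 1e-06 (adjusted p = 0.0016). KIF5C, the neuronal form, was low in both lines. It fell in 5637 cells, from 5.64, 5.39 and 6.26 to 2.4, 1.51 and 2.17 CPM (-1.51 ± 0.15, adjusted p = 5.7e-10), whereas CAL-29 libraries held 2.28, 2.15 and 1.85 against 2.21, 1.95 and 1.91 CPM (-0.05 ± 0.21). The difference between the lines, -1.48 ± 0.25, fell just short of the threshold (adjusted p = 1.6e-05).

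**Figure D3:**
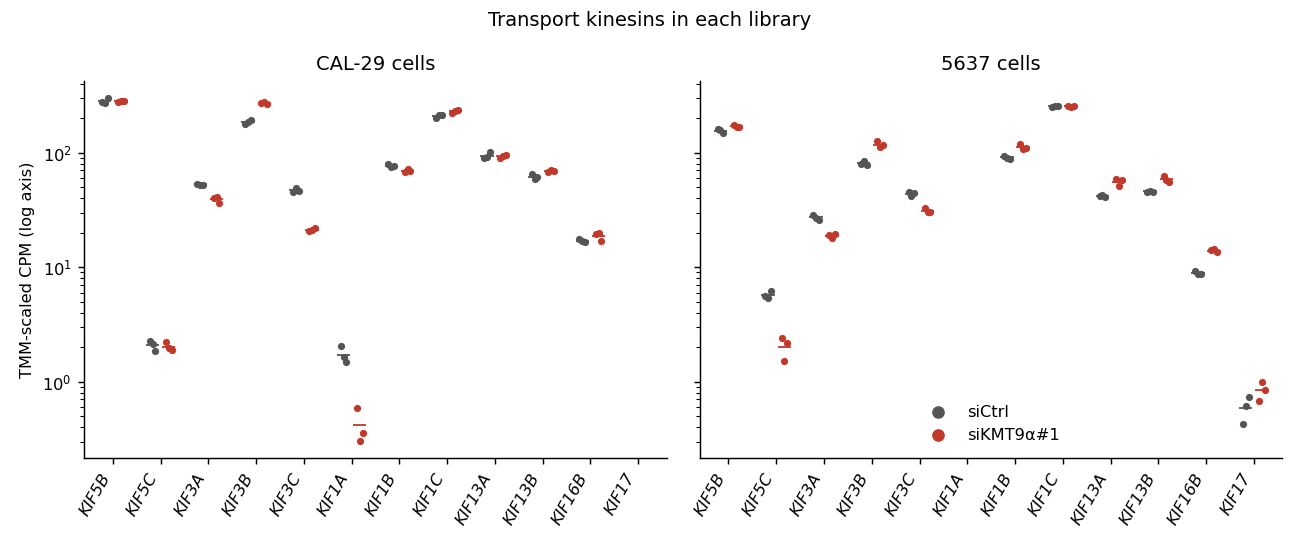
Level of the transport kinesins in every library (points; TMM-scaled CPM on a log axis) with the group mean (line), for siCtrl (grey) and siKMT9α#1 (red); genes not tested in a line have no points there. In both lines KIF3B lies higher and KIF3A and KIF3C lie lower in red, and KIF5B and KIF1C change little.

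Of the kinesin-3 motors, which carry vesicles and endosomes, 4 rose in 5637 cells and none in CAL-29 cells. KIF16B, which moves early endosomes, had 9.26, 8.8 and 8.64 CPM in the 5637 controls and 14, 14.3 and 13.6 CPM after knockdown (0.65 ± 0.08, adjusted p = 3.4e-08). In CAL-29 its groups overlapped, at 17.5, 17 and 16.5 against 19.5, 19.8 and 16.9 CPM (0.15 ± 0.08). KIF13A, a motor of recycling endosomes, rose by 0.42 ± 0.05 and KIF13B by 0.35 ± 0.05 in 5637, where CAL-29 gave -0.02 ± 0.05 and 0.17 ± 0.05, neither called. The tests of the difference between the lines missed 1e-06 for KIF16B (adjusted p = 0.00066), KIF13A (adjusted p = 3.1e-05) and KIF13B (adjusted p = 0.057). KIF1C, the most abundant kinesin mRNA per length in 5637 cells, was called in neither line (0.14 ± 0.05 and 0.00 ± 0.03). KIF1A, the neuronal vesicle motor, held 2.04, 1.64 and 1.47 CPM in CAL-29 controls and 0.584, 0.305 and 0.358 CPM after knockdown, a log2 difference of -2.03 ± 0.32 that missed the call in edgeR (adjusted p = 1.1e-05) and passed 1e-06 in DESeq2.

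KIF1B gave different answers for its 2 transcripts. The row with most counts, NM_015074, encodes the long form, and NM_183416 the short form, KIF1Bα, which has been linked to mitochondria. Fitted with every transcript as its own row, an analysis chosen after the data were seen, NM_183416 fell in both lines. It went from 34.7, 34.5 and 36.1 to 20.5, 19.6 and 19.3 CPM in CAL-29 (-0.83 ± 0.05, adjusted p = 2.7e-11) and from 39.3, 37.3 and 38.4 to 24.6, 23.1 and 26.0 CPM in 5637 (-0.64 ± 0.05, adjusted p = 7.6e-13). NM_015074 had 41.5, 39.3 and 39.9 against 35.2, 37.7 and 36.1 CPM in CAL-29, which was not called (-0.15 ± 0.05). In 5637 cells it rose, from 51.2, 49.1 and 48.4 to 64.2, 58.5 and 59.9 CPM (0.30 ± 0.04, adjusted p = 1.1e-07). The transcripts share their first exons, and reads there count towards both, so the rows are not independent. With the mean over transcripts in place of the row with most counts, the KIF1B value in 5637 cells was -0.04 ± 0.04 and no longer called. In CAL-29 cells KIF1B was called down in that setting. No such split was seen for KIF23, the only mitotic member with several transcripts, at 1.23 and 1.22 in CAL-29 and 0.77 and 0.77 in 5637.

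**Figure D4:**
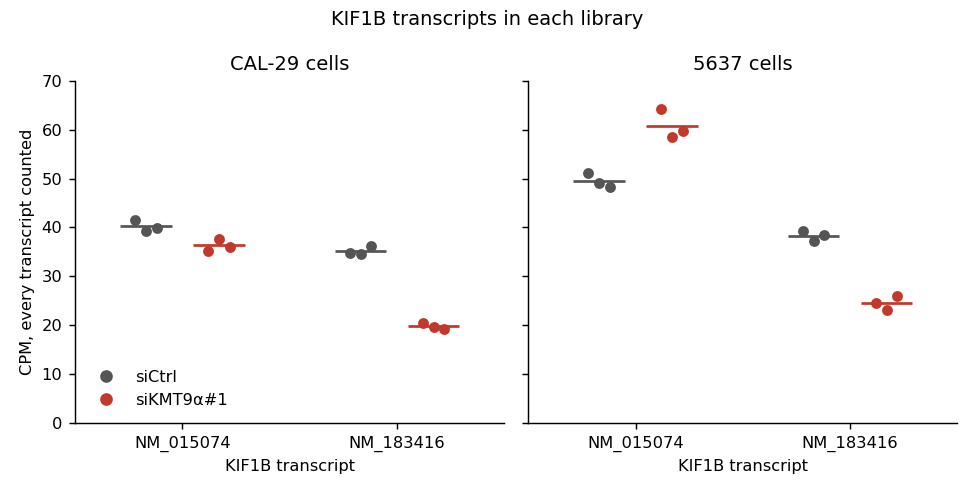
CPM of both KIF1B transcripts in every library (points) with the group mean (line), for siCtrl (grey) and siKMT9α#1 (red). NM_183416 is lower after knockdown in both lines, and NM_015074 is higher in 5637 cells only, where its 3 siKMT9α#1 libraries lie at 58.5 to 64.2 against 48.4 to 51.2.

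Between the lines the transport response was higher in 5637 than in CAL-29 cells for KIF1B and KIF3C and lower for none at p below 1e-06, of the 13 transport members in the joint fit, a share near the 15.7% of all genes that differed in either direction (7.11% higher). The KIF1B call was lost without any one of 6 of the 12 libraries, and without siCtrl replicate 1 of CAL-29 there were 3 higher, with KIF13A. At siCtrl, 3 transport kinesins were higher in 5637 (KIF1B, KIF1C and KIF5C) and 7 were lower (KIF1A, KIF3A, KIF3B, KIF5B, KIF13A, KIF13B and KIF16B), beside 30.7% and 29.0% of all genes. KIF3B stood at 181 ± 6.45 CPM in CAL-29 and 82.2 ± 3.78 CPM in 5637 controls, a log2 difference of -1.14 ± 0.05.

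Per kilobase of the longest coding transcript in the GRCh37 annotation, transport motors led both lines. In the CAL-29 controls KIF5B was highest, with a mean of 47.1 CPM per kb (45.5 to 49.7 over the 3 libraries), followed by KIF3B at 29.5 (28.4 to 30.5) and KIF1C at 25.5 (24.5 to 26.1). The first mitotic members came next, KIF22 at 17.2 (16.8 to 17.4) and KIF23 at 15.6 (15.1 to 16.0). In the 5637 controls KIF1C led at 32.7 (32.2 to 33.1), then KIF5B at 26.9 (25.7 to 27.8), KIF22 at 25.1 (24.7 to 25.9), KIF2C at 21.1 (20.5 to 21.4) and KIF23 at 14.7 (14.1 to 15.1). Of these neighbours only KIF5B and KIF22 in 5637 overlapped over the libraries. KIF17, KIF5A and KIF1A were at most 0.183 CPM per kb in either line.

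Among the cilium, microtubule and other kinesins, 3 of 10 were called in CAL-29 cells (KIF12, KIF24 and KIF26A), the same share as the 30.0% of all genes, and 1 of 8 in 5637 cells (KIF21B), 12.5% beside 35.6%. KIF12, whose loss causes a liver disease of bile ducts, fell in CAL-29 from 4.57, 3.32 and 3.33 to 0.422, 0.732 and 0.477 CPM, a fall of 6.73-fold (log2 -2.75 ± 0.26, adjusted p = 8.3e-09). KIF26A, which binds microtubules without moving along them, fell from 16.6, 15.9 and 17.2 to 6.95, 6.34 and 6.84 CPM (-1.31 ± 0.10, adjusted p = 1.7e-10). Both were too low to test in 5637 cells, where the highest count in any library was 8 for KIF12 and 2 for KIF26A. KIF24, a centriolar depolymerase that restrains cilia, rose in CAL-29 from 11.4, 10.6 and 11.8 to 18.6, 17.6 and 16.2 CPM (0.64 ± 0.09, adjusted p = 2.5e-06), a call that was lost without siCtrl replicate 2 or any of the 3 siKMT9α#1 libraries, at 0.59 to 0.69. Its 5637 libraries, at 23.1, 19.9 and 20.4 against 20.4, 19.9 and 21.3 CPM, overlapped (-0.04 ± 0.07), and the difference between the lines was called (-0.69 ± 0.11, adjusted p = 6.1e-06), although its unadjusted p rose past 1e-06 when most single libraries were left out. KIF24 was, beside KIF5B, the only member outside the mitotic set with CHR letters, among the windows listed.

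KIF21B, which slows microtubule growth, rose in 5637 from 21.9, 23.5 and 20.2 to 36.6, 34.9 and 32.5 CPM (0.67 ± 0.06, adjusted p = 1.3e-10). In CAL-29 its log2 fold change was nearly the same, 0.66 ± 0.14, from 4.73, 4.06 and 4.99 to 8.05, 7.32 and 6.4 CPM, which missed the call (adjusted p = 0.00021) and passed it when no filter on low counts was applied, and the test between the lines gave -0.02 ± 0.14. The remaining members, KIF2A, KIF7, KIF9, KIF21A, KIF26B and KIF27, were called in neither line, with log2 fold changes from -0.72 (KIF26B in CAL-29) to 0.46 (KIF9 in 5637). KIF2A in CAL-29, at 0.29 ± 0.05, passed 1e-06 without the count filter, with scaling by totals, in DESeq2, in the joint fit and with a replicate block. Exons on the opposite strand cover 18.7% of KIF2A, 17.8% of KIF9, 10.8% of KIF7 and 10.7% of KIF27, the largest shares in the family.

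Of 14 genes that work with the mitotic kinesins, 13 rose in CAL-29 cells and none fell (median 1.0 on the log2 scale), and in 5637 cells 6 rose and 2 fell (median 0.20), beside 15.0% of all genes called up in CAL-29 and 18.0% up and 17.6% down in 5637. RACGAP1, the partner of KIF23 in centralspindlin, rose by 0.83 ± 0.06 and 0.39 ± 0.04, and TPX2, which anchors Aurora A on the spindle, by 1.29 ± 0.05 and 0.43 ± 0.03. PLK1 (2.07 ± 0.08 and 0.56 ± 0.05), AURKA (1.73 ± 0.05 and 0.51 ± 0.04), INCENP (1.17 ± 0.06 and 0.40 ± 0.04) and CDCA8 (1.29 ± 0.06 and 0.40 ± 0.05) rose in both. BIRC5 (survivin), which sits in one complex with INCENP, CDCA8 and Aurora B, rose in CAL-29 (0.55 ± 0.07) and fell in 5637 (-0.30 ± 0.05). CIT (citron kinase) was the other partner that fell in 5637 (-0.62 ± 0.05), and it was not called in CAL-29 (0.16 ± 0.07). Of 13 other G2/M genes, 13 rose in CAL-29 (median 1.34) and 10 rose in 5637 (median 0.38), beside the same 15.0% and 18.0%, among them FOXM1, an activator of these genes (1.62 ± 0.05 and 0.85 ± 0.04), CCNB1 (1.65 ± 0.05 and 0.57 ± 0.04) and MKI67 (1.15 ± 0.05 and 0.60 ± 0.04). Those not called in 5637 were CDC20 (0.06 ± 0.04), CDC25C (0.04 ± 0.09) and TTK (0.25 ± 0.06). In bulk RNA, more cells in G2/M and more of these mRNAs per cell cannot be told apart.

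Of 5 kinesins named without a KIF number, 2 rose and 1 fell in CAL-29, and 1 rose and 1 fell in 5637. These are 60% and 40% of that list, beside 30.0% and 35.6% of all genes. KIFC1 (HSET), which clusters extra centrosomes, rose by 1.04 ± 0.06 in CAL-29 and 0.38 ± 0.05 in 5637. CENPE rose by 1.44 ± 0.09 in CAL-29 and was not called in 5637 (0.04 ± 0.06), where its groups overlapped. KIFC2, a minus-end motor described in neurons, fell in both by a like amount, -1.14 ± 0.08 and -1.09 ± 0.06. KIFC3 and STARD9 were called in neither line. They gave -0.33 ± 0.05 and -1.15 ± 0.24 in CAL-29, and 0.05 ± 0.04 and 0.19 ± 0.08 in 5637. Of 17 tested partners and adaptors of the transport motors, 2 fell and none rose in CAL-29, and 1 rose and 3 fell in 5637, with medians of -0.15 and -0.16. These are 11.8% and 23.5% of the list, below the 30.0% and 35.6% of all genes called in either direction. KLC4, a light chain of kinesin-1, fell in both lines (-1.13 ± 0.10 and -0.94 ± 0.08). Of the dynein and dynactin genes, 1 of 19 tested rose and 2 fell in CAL-29 and 6 of 18 rose and 2 fell in 5637, with medians of -0.04 and 0.17, so that 15.8% were called in CAL-29 and 44.4% in 5637 beside 30.0% and 35.6% of all genes. DYNLL2, a dynein light chain, rose in both (0.88 ± 0.05 and 0.46 ± 0.04), and DCTN2 (dynamitin) fell in both (-0.41 ± 0.05 and -0.24 ± 0.04).

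**Figure D5:**
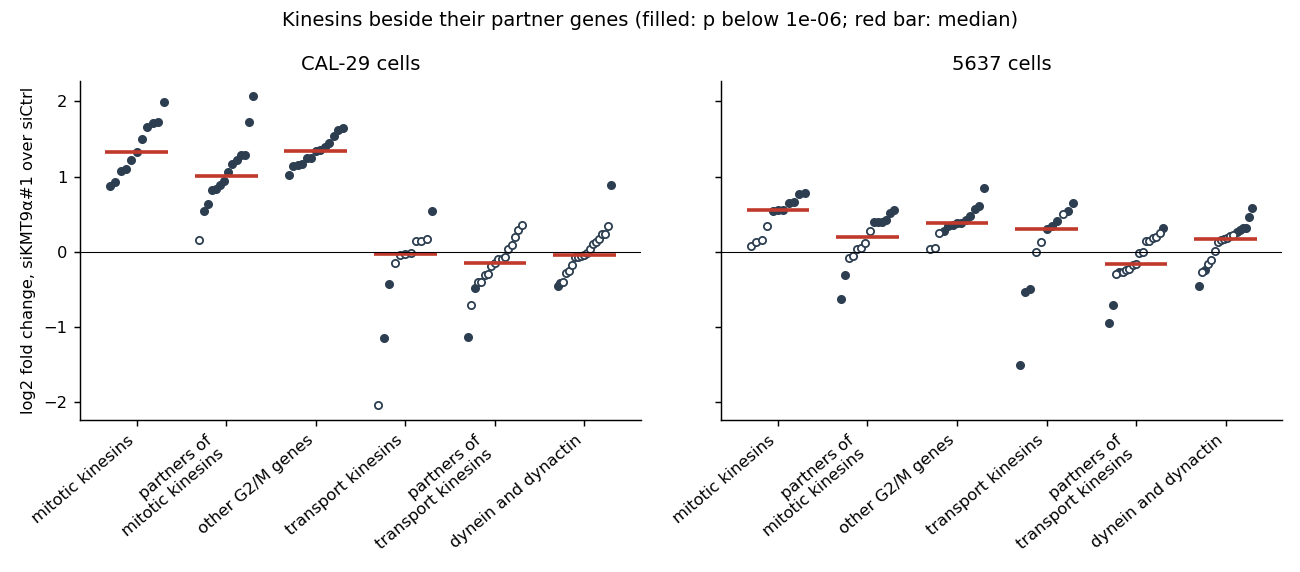
Log2 fold change (siKMT9α#1 over siCtrl) of each tested gene in 6 lists, sorted within a list, with the list median as a red bar; filled points have p below 1e-06. In CAL-29 cells the medians of the mitotic kinesins, their partners and other G2/M genes lie at 1.33, 1.0 and 1.34, and in 5637 cells at 0.55, 0.20 and 0.38, above the medians of the transport partners and of dynein and dynactin. The transport kinesins have medians of -0.02 in CAL-29 and 0.30 in 5637 cells, where they lie above the partners of the mitotic kinesins.

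Partial matches of the siRNA itself to kinesin mRNAs were looked up in the 3′UTRs. ACATTCA is the site complementary to bases 2 to 8 of the strand that pairs with the listed siKMT9α#1 sequence, and siRNAs can act on such sites as microRNAs do. In the longest annotated 3′UTR of each gene it stood in none of the 11 tested mitotic kinesins, in 1 of the 11 transport kinesins tested in each line and in 1 of the others, against 15.1% of the genes tested in CAL-29 and 15.5% of those in 5637. The mitotic 3′UTRs were short, with a median of 620 bases against 1498 and 1519 over all tested genes. The sites, in capitals (GRCh37), are in genes that were not called in either line. KIF26B was lower after knockdown in both lines, at -0.72 ± 0.23 in CAL-29 (adjusted p = 0.0086) and -0.62 ± 0.15 in 5637 cells (adjusted p = 0.00068). An adjusted p below 0.05 was reached by 69.5% and 70.7% of all genes. KIF26B held few counts, with means of 45.8 and 94.5 per library. KIF5B gave -0.02 ± 0.05 and 0.14 ± 0.04. Whether the sites played a part was not tested.
KIF5B (chr10:32298028-32298056, minus strand, 3′UTR): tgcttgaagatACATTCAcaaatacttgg
KIF26B (chr1:245871145-245871173, plus strand, 3′UTR): ctaatggttcaACATTCAattcctgagga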

How the data were processed

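RNAseq was made from 12 libraries. The authors aligned reads to hg19 with STAR, counted them per transcript with HOMER and tested them with edgeR. Per the file headers and values, the deposited columns hold expected counts, not normalized, since 37.9% and 36.6% of the values are not whole. Further deposited columns, the authors' log2 fold changes and p-values from edgeR, were not used.

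Here the row with most counts was kept per symbol, rounded to whole counts, filtered with filterByExpr and scaled by TMM. Each line was fitted alone with edgeR 4.0.16 (quasi-likelihood F test, R 4.3.3), and a joint fit tested cell line by siRNA. Calls were p below 1e-06, and adjusted p-values are Benjamini-Hochberg over all genes. SEs are the log2 fold change over the root of F. The biological coefficient of variation was 5.09% (CAL-29) and 3.34% (5637). The fits were tested on simulated counts. Every tested mitotic and transport kinesin could be named, with values per library for those called with a log2 change of 0.5 or more in size and for KIF11 and KIF5B. Partners were named where called in both lines. KIFAP3, CIT, CENPE, KIFC3, STARD9, CDC20, CDC25C and TTK, the values of KIF1A per library and those of KIF26B were added after their values were seen. Members, lists and this rule were chosen with earlier results of these data known. Promoters came from RefSeq (GRCh38.p14), and 3′UTRs, lengths and overlaps from GENCODE on GRCh37, the build called hg19.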

Additional observations from a re-analysis of the deposited data

Results flagged for a closer look

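The response to siKMT9α#1 differed between the lines at p below 1e-06 in the interaction test for 13 kinesins, given here as the log2 fold change in 5637 minus that in CAL-29 cells. It was lower in 5637 by -1.35 for KIF20A, -1.20 for KIF14, -1.17 for KIF18A, -0.97 for KIF4A, -0.96 for KIF11, -0.96 for KIF20B, -0.89 for KIF2C, -0.86 for KIF22, -0.70 for KIF18B, -0.69 for KIF24 and -0.47 for KIF23. It was higher in 5637 by 0.64 for KIF3C, which fell less there, and by 0.43 for KIF1B. Of all genes in that fit, 15.7% differed at the same threshold. Line, culture medium, transfection reagent and siRNA dose cannot be told apart in these values.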

How the results depend on the processing

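The counts of called mitotic kinesins stayed at 11 up in CAL-29 and 7 to 8 up in 5637 cells, with none down, over the filters, scalings, DESeq2, the joint fit and the mean over transcripts, and at 11 and 7 when any 1 library was left out. The transport counts were less stable. Scaling by total counts gave 1 transport member down in CAL-29 and 3 up in 5637 (KIF1B and KIF13B lost), with 1 higher and 1 lower response in 5637. No filter and DESeq2 each gave 1 lower transport response (KIF5C) and called KIF1A down in CAL-29. The mean over transcripts left 1 higher response, turned KIF1B in 5637 to -0.040 and called KIF1B down in CAL-29. Transport members called down in CAL-29 numbered 1 to 3 over these settings. At an adjusted p below 0.05, 3 transport members were up and 4 down in CAL-29, and 4 had a higher and 2 a lower response in 5637. With a log2 change of 1 or more in size required as well, 0 mitotic members were up in 5637 and 3 had a lower response there, 3 were higher at siCtrl, and the transport counts were 0 up and 1 down in each line, 0 with a higher response, and 1 higher and 3 lower at siCtrl. Leaving out 1 library gave 1 to 2 transport members down in CAL-29, 1 to 3 with a higher response in 5637, and 7 to 9 mitotic members higher at siCtrl. KIF3A, then KIF1B and KIF13A, then KIF4A and KIF15 moved in and out of these counts. The other kinesins called up in CAL-29 numbered 0 to 3 over the settings, through KIF24, KIF2A and KIF21B. Titles number replicates 1 to 3 in each group. Deviations of same-numbered libraries correlated only weakly, at -0.01 to 0.08, where differently numbered ones gave -0.08 to 0.04. In CAL-29 the same-numbered replicates 1 and 3 had the highest values of that line, 0.08 and 0.05. No pairing was stated, and the libraries were not taken as pairs. With the replicate number as a block the calls were 11 mitotic up and 1 transport up and 3 down in CAL-29, 7, 5 and 3 in 5637, and 7 mitotic members were higher and 5 transport members lower at siCtrl. Over all genes the block moved the calls from 4402 to 6327 in CAL-29 and from 5104 to 5378 in 5637. The depth limits KIF1A, KIF5C, KIF12 and the members under 1 CPM, where a few counts decide the value.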
